A study of Mus musculus with 6 samples.

Results

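The replication-dependent histone genes were taken as the protein-coding genes whose symbol begins with Hist1h, Hist2h, Hist3h or Hist4h, which gave 67 of the 54532 genes in the table and 67 of its 22046 protein-coding genes. Their RNA was measured by RNA-seq in mouse granulosa cells (GCs), the somatic cells that surround the oocyte in the ovarian follicle. GCs came from ICR females of 3 weeks of age that had received PMSG, a gonadotropin that makes follicles grow, so all samples were hormone-primed. The mice were then injected with PBS as the control or with CTX (cyclophosphamide, an alkylating anticancer drug), with GCs taken at 6 h after the injection. There were 3 samples in a group, every one a pool of GCs from 3 mice, so differences between single animals cannot be seen.

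Histones are the proteins that DNA is wound around. H2A, H2B, H3 and H4 form the core particle, and H1 binds the DNA between particles. Most genes for these proteins lie in clusters, are transcribed when DNA is copied in S phase, and give mRNAs that end in a stem-loop and carry no poly(A) tail. The stem-loop is bound by SLBP, which serves processing, translation and decay of these mRNAs, and NPAT drives their transcription. When DNA synthesis stops, histone mRNAs are rapidly degraded. Some of these genes also give longer mRNAs with a poly(A) tail, and others are used mainly in the testis. The protein-coding rule left out 3 further genes with such symbols that are listed as pseudogenes. The highest of them, Hist1h2al on chromosome 13 (GRCm38, 51202727 to 51203065), was listed at 17.5, 10.8 and 9.11 FPKM with PBS and at 20.02, 8.65 and 20.1 FPKM with CTX.

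By symbol, the 67 genes comprised 6 for H1, 18 for H2A, 18 for H2B, 12 for H3 and 13 for H4. The Hist1 cluster on chromosome 13 held 54 of them, the Hist2 cluster on chromosome 3 held 10, the Hist3 cluster on chromosome 11 held 2, and Hist4h4 was the only one on chromosome 6. All 67 had the same start and end in GENCODE M21 (GRCm38).

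The stem-loop is the sequence feature that these genes are known for, and the rule did not use it. A run of GG, any 2 bases, CTTTT, any base, AG, any 2 bases and CC was searched on the sense strand of every protein-coding GENCODE M21 transcript. It was found in 44 of the 67 genes (65.7%), against 28 of 21834 other protein-coding genes (0.128%). The stem-loops below belong to the most abundant gene, the gene with the largest difference between groups, the most abundant H4 gene, the tested Hist3 gene and the only Hist4 gene. Capitals mark the paired arms of 6 bases around the loop of 4 bases, and the strand is that of the gene (GRCm38).
Hist1h1c, chr13:23739507-23739532, plus strand: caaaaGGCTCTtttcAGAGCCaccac
Hist1h3a, chr13:23761885-23761910, minus strand: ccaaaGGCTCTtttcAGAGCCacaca
Hist1h4i, chr13:22040961-22040986, minus strand: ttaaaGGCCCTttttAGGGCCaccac
Hist3h2a, chr11:58955167-58955192, plus strand: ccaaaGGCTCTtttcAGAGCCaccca
Hist4h4, chr6:136803993-136804018, minus strand: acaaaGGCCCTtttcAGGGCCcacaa
The search pattern itself fixed 4 of the 6 base pairs of the arms, and the 2 free pairs were complementary in all 44 genes. There were 6 versions of these 16 bases, which the pattern let differ only at its free bases. The version of Hist1h1c, Hist1h3a and Hist3h2a was the most frequent, in 26 genes. The version of Hist4h4 was found in 7 genes and that of Hist1h4i in 2. The gene models differed in where they ended. In 22 genes the model stopped within 100 bases of the stem-loop, as in Hist1h3a, where 37 bases followed it. In another 22 it ran on, by 840 bases in Hist1h1c, 1643 in Hist3h2a and 2445 in Hist4h4. The remaining 23 models held no match, among them Hist1h1b and Hist2h2be. A model that stops before the stem-loop cannot show one, but not all 23 were short. That of Hist2h2be had 2620 bases, with the letters AATAAA in its last 50.

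The promoters differed by histone class. RefSeq promoter windows (GRCm38.p6, 250 bases before to 50 after the start) were matched for 62 of the 67 genes. The letters CCAAT, searched on both strands like all 5 motifs here, which may overlap in a window, were present in every matched promoter for H1 (6), H2A (18), H2B (16) and H3 (10), but in only 3 of 12 for H4, against 37.4% of all 32851 RefSeq promoters. GGTCCG was found in 11 of 12 H4 promoters and in 8.25% of all promoters. AAACACA, the H1 box, was found in 5 of 6 H1 promoters and in 7.18% of all. The octamer ATTTGCAT was found in 6 of 16 H2B and 7 of 18 H2A promoters and in 1.74% of all, and TATAAA in 35 of 62 promoters and in 13.6% of all. Windows of neighbouring H2A and H2B genes can cover the same bases, so the same match can count in both classes. This was so for the octamer in Hist1h2aa and Hist1h2ba, Hist1h2ae and Hist1h2bg, and Hist1h2ah and Hist1h2bk. The following windows belong to Hist1h1c, which held most of the histone reads, to Hist1h1b, an H1 gene that was higher in every CTX sample, and to Hist1h4i, the most abundant H4 gene. They are printed in the gene's direction, with these motifs in capitals on whichever strand they were read.
Hist1h1c, chr13:23738557-23738856, plus strand: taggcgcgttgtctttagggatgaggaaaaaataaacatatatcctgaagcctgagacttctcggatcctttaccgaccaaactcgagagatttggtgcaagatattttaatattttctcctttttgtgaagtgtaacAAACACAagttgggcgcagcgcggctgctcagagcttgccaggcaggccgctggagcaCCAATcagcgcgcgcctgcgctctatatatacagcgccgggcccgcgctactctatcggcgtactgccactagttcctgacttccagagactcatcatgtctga
Hist1h1b, chr13:21780576-21780875, minus strand: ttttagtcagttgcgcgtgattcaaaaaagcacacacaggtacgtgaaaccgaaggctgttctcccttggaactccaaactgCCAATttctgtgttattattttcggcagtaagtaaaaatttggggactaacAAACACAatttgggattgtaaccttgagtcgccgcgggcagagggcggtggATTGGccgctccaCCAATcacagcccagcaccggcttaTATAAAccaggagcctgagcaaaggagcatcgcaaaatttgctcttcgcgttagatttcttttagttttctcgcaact
Hist1h4i, chr13:22041313-22041612, minus strand: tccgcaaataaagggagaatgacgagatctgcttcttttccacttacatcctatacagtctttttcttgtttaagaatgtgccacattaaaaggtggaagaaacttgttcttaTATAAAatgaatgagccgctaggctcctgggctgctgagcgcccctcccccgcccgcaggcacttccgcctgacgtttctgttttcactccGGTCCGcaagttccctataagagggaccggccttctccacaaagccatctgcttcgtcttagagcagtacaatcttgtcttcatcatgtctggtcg
Both H1 windows held AAACACA and CCAAT, and only that of Hist1h1b also held TATAAA. The Hist1h4i window held GGTCCG and no CCAAT on either strand. A match is a description of letters, not of a bound site.

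Levels were given by the authors as FPKM, the fragments on a gene divided by its length in kilobases and by depth, and the reads behind each value were rebuilt from it. Reads on genes were 16005869 to 17790353 per PBS sample and 17727770 to 18455011 per CTX sample, and in a gene of 1 kb 3 reads amounted to 0.164 to 0.185 FPKM. Markers of several cell types differed between the groups, and in several of them CTX replicate 2 lay furthest from the PBS samples. Summed leukocyte, theca and endothelial levels lay outside the PBS range in all 3 CTX samples. The granulosa marker Cyp19a1 (aromatase) was at 59.2 to 62.4 FPKM in the PBS samples, and at 47.6, 6.61 and 32.5 FPKM in CTX replicates 1, 2 and 3. In the same order, the summed level of 5 erythroid genes was 359.0, 138.1 and 497.1 FPKM (318.7 to 454.2 in PBS), that of 4 theca genes 34.2, 8.81 and 17.7 (35.3 to 38.0 in PBS), that of 5 endothelial genes 3.90, 1.79 and 4.10 (4.45 to 5.45 in PBS), and that of 8 leukocyte and macrophage genes 34.3, 64.1 and 25.04 (20.3 to 21.9 in PBS). Summed levels were 10700 to 11860 in PBS and 9641 to 10230 in CTX for 7 granulosa genes, a sum mostly of Inha, and 45.95 to 100.1 in PBS and 63.2 to 108.8 in CTX for 10 oocyte genes. Of the 7 granulosa genes 6 had a lower mean log2 level with CTX, with a median log2 fold change of -0.56, and in 5 all CTX samples were below the PBS samples. Of 6 tested leukocyte genes, 5 had a log2 fold change above 0, with a median of 0.78. In 4 of them all CTX samples were above the PBS samples, where 15.0% of all tested genes were. In 1 the rise passed an adjusted p under 0.05 and 2-fold (limma), where 0.802% of all tested genes did. The theca sum was mostly Cyp17a1, at 30.8 to 34.4 FPKM with PBS and at 29.6, 1.25 and 12.4 FPKM in CTX replicates 1 to 3, and 2 of the 3 tested theca genes had a log2 fold change above 0 (median 0.40). The defining granulosa markers Fshr, Foxl2 and Inha were above 40 FPKM in all samples, and no oocyte, leukocyte or endothelial marker was at 0 in all. The part of these other cells in the histone values was not tested, and in such bulk samples fewer cells of a type and less RNA per cell cannot be told apart.

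The histone genes were barely covered. Their reads came to 1706, 1594 and 1546 with PBS and to 2020, 841 and 1570 with CTX, which was 0.00896% to 0.00967% and 0.00471% to 0.0109% of all reads on genes. The median over the 67 genes was a mean level of 0.248 FPKM. For comparison, the 12 replacement and other histone genes, which have other symbols, had a median of 55.1 FPKM, and 24 S phase genes had 16.1 FPKM. H2afj of these 12 lies near Hist4h4 on chromosome 6 (136808244 to 136810074). Only 10 of the 67 genes had a mean of at least 1 FPKM. There were 48 genes with 10 or fewer reads in every sample, 21 with 3 or fewer, and 7 with none in any sample: Hist1h4b, Hist2h2aa1, Hist2h2aa2, Hist2h2ab, Hist2h2bb, Hist2h3b and Hist2h3c1. Whether the libraries were made from RNA with a poly(A) tail is not given in the sources used here, and an RNA without one would be missed in such a library. No sample was sorted by cell cycle phase, so whether these reads came from cells in S phase was not tested.

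**Figure D1:**
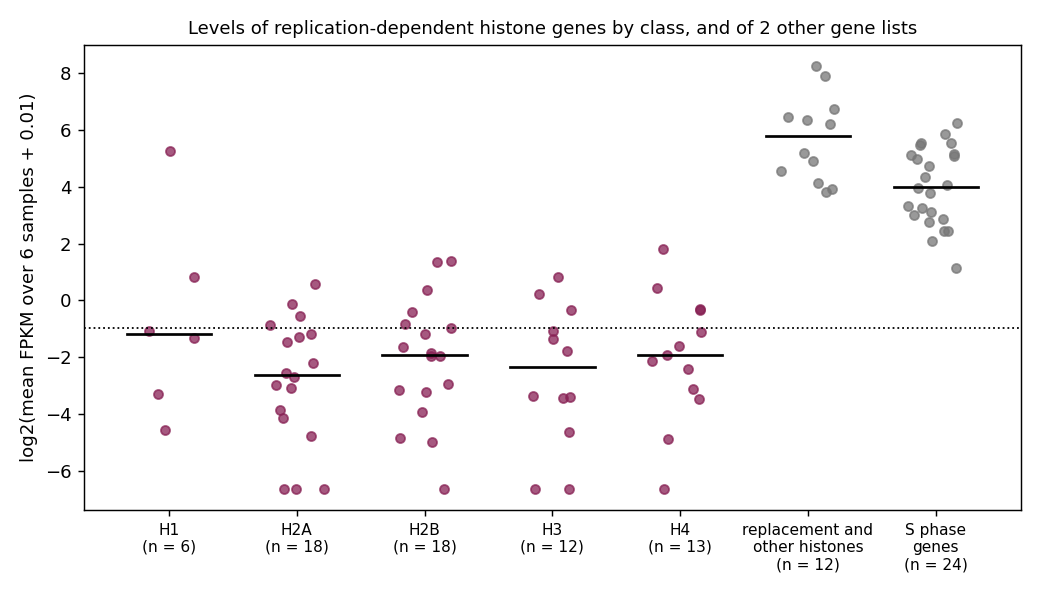
Level of each of the 67 replication-dependent histone genes by class, of 12 replacement and other histone genes and of 24 S phase genes, as log2(mean FPKM over 6 samples + 0.01). Points are genes, bars are medians and the dotted line is the 0.5 FPKM minimum for testing; Hist1h1c is the single H1 gene at the level of the other lists, and genes listed at 0 lie along the bottom.

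Hist1h1c alone, the gene for the linker histone H1.2, took most of these reads, at 1085 to 1151 reads per PBS sample. Apart from it, the highest gene of each class was Hist1h2ao for H2A with a mean of 1.47 FPKM, Hist2h2be for H2B with 2.59, Hist1h3h for H3 with 1.77 and Hist1h4i for H4 with 3.47. Among genes used mainly in the testis, Hist1h1t had 2 reads over the PBS samples and 1 over the CTX samples. Hist1h2aa had 0 reads in every PBS sample and 0, 3 and 3 with CTX, and its neighbour Hist1h2ba had 1 read in CTX replicate 2. These lie at or under 3 reads in every sample, at which no difference could be seen. The genes with a stem-loop and a model that ran on held 78.3% of all histone reads, mostly through Hist1h1c, while those whose model ended within 100 bases held 5.08%, at median levels of 0.210 and 0.239 FPKM. The genes with no match had a median of 0.426 FPKM.

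The copies resemble each other, and some overlap other gene models, which bears on what a read count means. Of the 50-base windows of a gene, a median of 54.1% also occurred in another gene, and at least 50% did in 34 of the 67 genes. The other gene could be of any kind and on either strand, also a model at the same place, so these shares do not count histone copies only. In 5 genes, all of the Hist2 cluster, every window was shared (Hist2h2aa1, Hist2h2aa2, Hist2h2bb, Hist2h3b and Hist2h3c1), and these 5 were listed at 0 in all samples. Hist2h2bb shared its windows with only 2 genes, and it overlapped 2 gene models, Gm42743 and Gm20628. How reads that map to several genes were treated is not given in the sources used here, so the values of genes with many shared windows are uncertain. No window was shared in Hist1h1a, Hist1h1b, Hist1h1t and Hist2h2be, and 8.54% were in Hist1h1c. The 17 genes with under 25% of shared windows held 81.5% of the histone reads. In addition, 24 genes overlapped another gene of the table, 7 of them on the same strand, and whether reads were counted by strand is not given either.

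**Figure D2:**
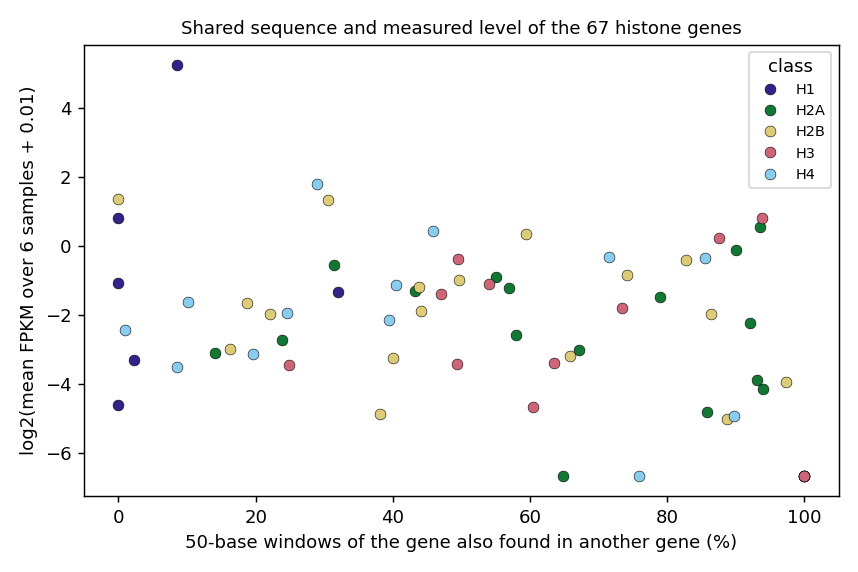
Share of each gene's 50-base windows that also occur in another gene (percent) against its level, as log2(mean FPKM over 6 samples + 0.01), for the 67 histone genes coloured by class. The 5 genes with every window shared lie on top of each other at 100% and at 0 FPKM, and Hist1h1c, with 8.54% shared, lies highest.

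To ask whether CTX treatment changed these genes after 6 h, the groups were compared as log2(FPKM + 0.1) with limma across all 14463 genes with a mean of at least 0.5 FPKM, and genes with an adjusted p under 0.05 and a change of more than 2-fold were called. This minimum admitted 19 of the 67 histone genes, and fold changes on this scale understate those of low genes. After CTX treatment 1 histone gene was called higher, Hist1h3a, where 0.802% of all tested genes were, and none was called lower, where 0.159% were. Hist1h3a reached the minimum only through its CTX samples, with means of 0.250 FPKM with PBS and 1.29 FPKM with CTX. At an unadjusted p under 0.05 there were 3 histone genes (Hist1h3a, Hist1h1b and Hist1h4k), where 19.6% of all tested genes passed. The log2 fold change was above 0 in 9 and below 0 in 10 of the 19 genes, with a median of -0.01 against -0.0081 over all tested genes. Hist1h2bk and Hist1h2bg, both above 0, also passed the minimum only through CTX samples (0.485 and 0.370 FPKM with PBS, 0.625 and 0.636 with CTX). Hist2h2ac, whose value is the median, passed only through PBS samples (0.676 FPKM, against 0.393 with CTX). The sign count and median thus rest partly on genes admitted through their higher group. The 3 CTX samples lay above the 3 PBS samples in 2 genes, Hist1h3a and Hist1h1b, where 15.0% of all tested genes did so, and below them in none, where 14.1% did.

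**Figure D3:**
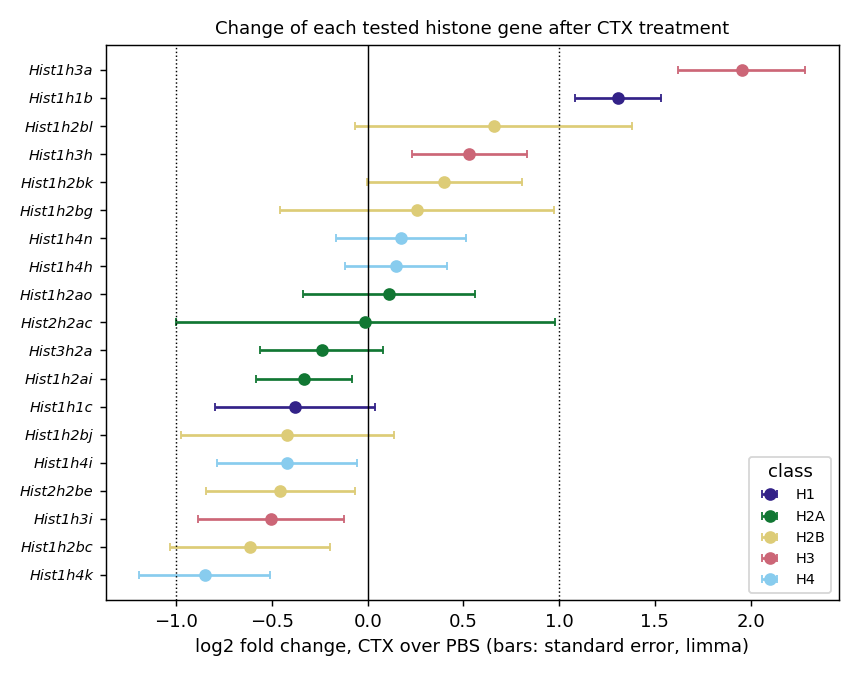
Log2 fold change of CTX over PBS for the 19 tested histone genes, with standard errors from limma (n = 3 per group), coloured by class. Dotted lines mark 2-fold changes; Hist1h3a and Hist1h1b lie beyond 2-fold, and the other genes lie on both sides of 0 within 2-fold.

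Hist1h3a encodes a canonical H3 that is deposited during replication. It lies on the minus strand of chromosome 13 (GRCm38, 23761853 to 23762386). With PBS it had 3, 2 and 2 reads and with CTX 9, 11 and 17, that is 0.250 ± 0.058 FPKM and 1.29 ± 0.44 FPKM (SD, n = 3). The 2 groups did not overlap, with 9 reads in the lowest CTX and 3 in the highest PBS sample. Its log2 fold change was 1.95 with a standard error of 0.33 (limma, adjusted p = 0.0489). The ratio of its reads, corrected for depth, was 5.15, with an exact 95% interval from 2.26 to 13.7 that covers counting error only. Its PBS samples were at the 3-read floor, it passed the expression minimum only through its CTX samples, and 49.5% of its windows were shared with other genes. The adjusted p lay just under the threshold, and the call was lost in 12 of 17 alternative fits. Leaving out CTX replicate 2 or 3 or any PBS sample ended it (adjusted p = 0.0634, 0.14 and 0.144 to 0.193 by limma).

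Hist1h1b encodes the linker histone H1.5 and lies on the minus strand of chromosome 13 (GRCm38, 21779883 to 21780625). It shared no 50-base window with another gene and overlapped none. With PBS it had 15, 11 and 11 reads and with CTX 25, 38 and 38, or 0.951 ± 0.166 and 2.53 ± 0.58 FPKM (SD, n = 3). The groups did not overlap, and the lowest CTX sample, replicate 1, was at 1.86 FPKM against 1.13 FPKM in the highest PBS sample. Its log2 fold change was 1.31 with a standard error of 0.23, and its adjusted p of 0.0509 (limma) just missed the threshold. The depth-corrected ratio of reads was 2.66, with an exact 95% interval from 1.81 to 3.985 that covers counting error only, not the spread between samples. It was called in 3 of the 17 alternative fits, with sample weights, among protein-coding genes only and without CTX replicate 1 (adjusted p = 0.00051, 0.034 and 0.0272 by limma), and it also passed when p-values were not adjusted.

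Hist1h1c, on the plus strand of chromosome 13 (23738808 to 23740367), was at 41.4, 38.1 and 42.9 FPKM in the PBS samples. It was at 53.6, 15.6 and 36.5 FPKM in CTX replicates 1, 2 and 3. The CTX samples lay on both sides of the PBS samples, with 1515, 433 and 1019 reads. Means were 40.8 ± 2.5 and 35.2 ± 19 FPKM (SD, n = 3), and the log2 fold change of -0.38 with a standard error of 0.42 did not pass (limma, adjusted p = 0.627). CTX replicate 2, in which Cyp19a1 and Cyp17a1 were also low, decided the direction: without it the log2 fold change was 0.12. The other H1 genes were Hist1h1a with 10, 5 and 2 reads in PBS and 9, 2 and 9 in CTX samples, Hist1h1d with 11, 16 and 5 against 17, 12 and 12, and Hist1h1e with 1, 11 and 15 against 20, 22 and 10. None of these 3 reached the expression minimum, and the groups overlapped in each. Hist1h1d is listed with a length of 7425 bases and Hist1h1e overlaps the long model of Hist1h2be on its strand, so that their reads per kilobase may not describe the histone mRNA alone.

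**Figure D4:**
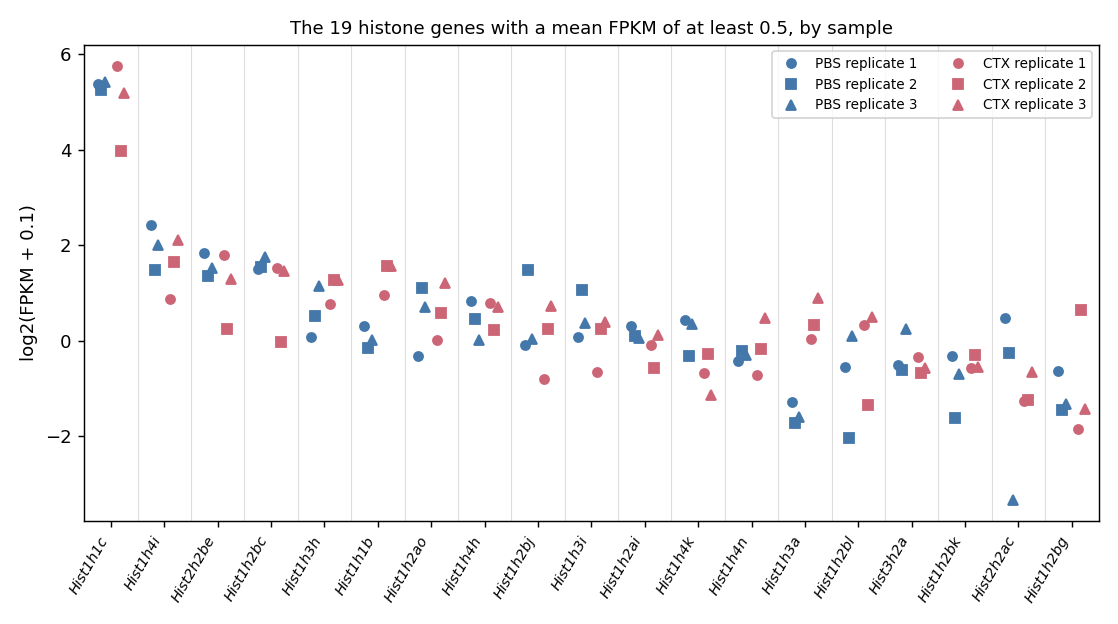
Values of the 19 tested histone genes in each of the 6 samples, as log2(FPKM + 0.1), ordered by mean level. Blue and red mark PBS and CTX samples and the shape marks the replicate number; the groups are apart in Hist1h1b and Hist1h3a, and CTX replicate 2 is lowest in Hist1h1c, Hist2h2be and Hist1h2bc.

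Of the H2B genes, 6 were tested. Hist2h2be, a gene with no shared window, had 163, 118 and 118 reads with PBS and 160, 51 and 111 with CTX. Its level was 2.91 ± 0.53 and 2.28 ± 1.14 FPKM (SD, n = 3), with a log2 fold change of -0.46 ± 0.39 (SE, limma adjusted p = 0.528). Hist1h2bc had 56, 60 and 61 reads against 58, 18 and 55, with a log2 fold change of -0.61 ± 0.42 (SE, adjusted p = 0.436). In both, as in Hist1h1c, CTX replicate 2 alone was low, and the other 2 CTX samples lay within or next to the PBS values. That sample was the lowest of the CTX samples in 7 of the 19 tested histone genes (36.8%), where it was in 37.4% of all tested genes. Hist1h2bl and Hist1h2bk had at most 9 reads in any sample and log2 fold changes of 0.66 ± 0.72 and 0.40 ± 0.40 (SE), and neither passed the test. Hist1h2be, with a listed length of 4446 bases that spans other genes, was not tested and had 12, 18 and 7 reads in PBS against 9, 4 and 6 in CTX samples. Hist1h2bq and Hist1h2br, with listed lengths of 2015 and 2212 bases, had at most 5 reads in any sample.

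In the H2A class, 4 genes were tested and none passed. Hist1h2ao, the highest of them, had 6, 18 and 12 reads with PBS and 8, 12 and 19 with CTX, at 1.43 ± 0.68 and 1.51 ± 0.65 FPKM (SD, n = 3). The groups overlapped, and 93.5% of its windows were shared. Hist3h2a, a gene of 2146 bases that overlaps Trim17, had 23, 22 and 38 reads against 27, 20 and 22 (log2 fold change -0.24 ± 0.32, SE), and its neighbour Hist3h2ba had 1, 3 and 2 against 3, 3 and 4. Hist1h2ac, which was under the expression minimum, had 10, 5 and 7 reads with PBS and 1, 1 and 4 with CTX. It was the only histone gene with all CTX samples below all PBS samples when no minimum was set, where 9.42% of 28857 genes were. Its log2 fold change by limma's voom on the rebuilt reads without a minimum was -1.84 (adjusted p = 0.243). It overlaps the gene models Gm24991 and Gm44350, 1 of them on its own strand.

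Among the 3 tested H3 genes, Hist1h3h had 7, 10 and 14 reads with PBS and 12, 17 and 17 with CTX (log2 fold change 0.53 ± 0.30, SE, limma adjusted p = 0.363), and 93.9% of its windows were shared. Hist1h3i had 7, 15 and 8 reads against 4, 8 and 9 (log2 fold change -0.50 ± 0.38, SE). The groups overlapped in both, which encode the same kind of protein as Hist1h3a and had opposite signs. Among the 4 tested H4 genes, Hist1h4i was at 5.25, 2.70 and 3.91 FPKM with PBS and 1.75, 3.02 and 4.22 FPKM with CTX, and the groups overlapped. Its log2 fold change was -0.42 ± 0.36 (SE, limma adjusted p = 0.534). Hist1h4k had 7, 4 and 6 reads against 3, 4 and 2, and its log2 fold change of -0.85 ± 0.34 (SE) was the lowest of the 19, with an adjusted p of 0.245 (limma). Hist4h4, which was not tested, had 4, 4 and 5 reads against 5, 5 and 1. Without a minimum, the groups were also apart, with CTX higher, in 3 more genes, Hist1h4f, Hist1h3e and Hist3h2ba, each with at most 6 reads in any sample, which made 5 of the 60 histone genes with reads, where 9.62% of 28857 genes were apart in this direction.

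Summed over all 67 genes, the level was 74.95, 68.5 and 73.0 FPKM with PBS and 80.9, 45.5 and 74.8 FPKM with CTX, which gave 72.2 ± 3.3 and 67.1 ± 18.95 FPKM (SD, n = 3) and a log2 ratio of -0.11. Without Hist1h1c it was 31.3 ± 1.9 and 31.85 ± 5.8 FPKM, a log2 ratio of 0.02, and CTX replicate 2, at 29.8 FPKM, then lay between the other CTX samples. By class, the log2 ratio was -0.03 for H2A, -0.19 for H2B, 0.36 for H3 and -0.21 for H4, and the groups overlapped in each of them. The 5 H1 genes other than Hist1h1c summed to 2.06, 1.604 and 1.67 FPKM with PBS and to 3.285, 3.77 and 3.91 FPKM with CTX, which did not overlap. Most of this difference came from Hist1h1b, and the grouping without Hist1h1c was chosen after the values were seen. With voom, limma's method for counts, on the reads of the 19 tested genes 0 were called, where 0.927% of all tested genes were, and 2 had an unadjusted p under 0.05 (Hist1h1b and Hist1h3a), where 20.2% did. With voom and no expression minimum, on the 60 histone genes that had any, 0 were called, where 0.572% of 28857 genes were, and 3 had an unadjusted p under 0.05 (Hist1h1b, Hist1h3a and Hist1h2ac), where 13.5% of all genes did.

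**Figure D5:**
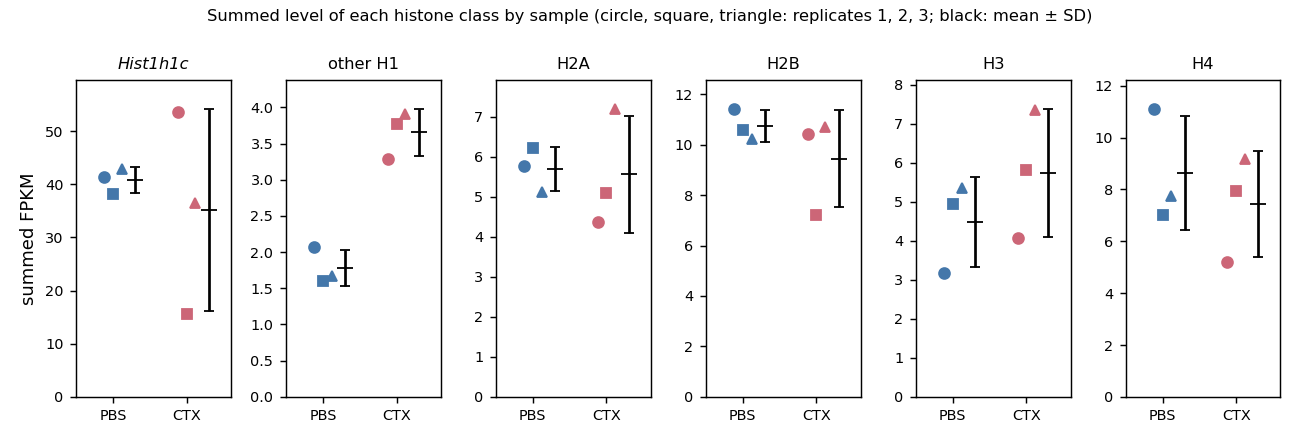
Summed FPKM of Hist1h1c, of the 5 other H1 genes and of the H2A, H2B, H3 and H4 genes in each sample, with PBS in blue, CTX in red, and the mean ± SD in black (n = 3). The groups are apart for the other H1 genes, from 1.604 to 2.06 FPKM in PBS and from 3.285 to 3.91 FPKM in CTX, and overlap for Hist1h1c and the other classes.

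Of the genes that make, process and use histone mRNA, all passed the expression minimum except Zfp473 of the 3′ processing list, with a mean of 0.156 FPKM, and none was called. Zcchc6 and Zcchc11 of the decay list were not matched by symbol. S phase genes, which are transcribed together with the clustered histone genes in dividing cells, had a log2 fold change above 0 in 22 of 24, where 48.6% of all tested genes did, with a median of 0.24. The groups were apart in 13 of them, with CTX higher in each, where 15.0% of all tested genes were. Rrm2, a subunit of the enzyme that makes deoxynucleotides, was at 33.8, 32.99 and 35.4 FPKM with PBS and 66.0, 45.3 and 64.0 FPKM with CTX (log2 fold change 0.76 ± 0.15, SE, limma adjusted p = 0.0728). Cdt1, which loads the replicative helicase, was at 13.6 ± 0.8 and 19.8 ± 1.2 FPKM (SD, n = 3), and its adjusted p of 0.0263 (limma) passed while its log2 fold change of 0.54 was under 2-fold. The lowest log2 fold changes of this list were -0.14 for Fen1, the flap endonuclease, and -0.02 for Mcm3, a helicase subunit. The 19 tested histone genes had 9 above 0, and whether they differed from the S phase genes was not tested.

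Of 7 genes for histone gene transcription, 5 had a log2 fold change above 0 and the median was 0.08. Npat was at 5.34 ± 0.45 FPKM in PBS and 6.08 ± 0.31 FPKM in CTX samples (SD, n = 3), with a log2 fold change of 0.19 (limma adjusted p = 0.312). Ccne2 and Ccne1, cyclins that activate the kinase acting on NPAT, had log2 fold changes of 0.26 and 0.25, and those of Hinfp, the factor for H4 promoters, and Pou2f1, the octamer factor, were -0.22 and -0.19. Among 13 tested genes of 3′ end processing, 9 lay below 0, with a median of -0.14 and with all CTX samples below all PBS samples in 6, where 14.1% of all tested genes were. Slbp was at 15.1 ± 0.4 and 15.8 ± 1.3 FPKM (SD, n = 3; log2 fold change 0.07, limma adjusted p = 0.664) and Lsm11, part of the U7 particle that guides the cut, had a log2 fold change of 0.06. Those of the cleavage factor gene Cstf2t and the cap-binding gene Ncbp2 were -0.30 and -0.23. Of 6 tested genes for histone mRNA decay, 4 lay below 0. Upf1, a helicase that joins SLBP when histone mRNA is degraded, was at 29.1, 30.8 and 29.1 FPKM with PBS and 22.2, 22.6 and 24.1 FPKM with CTX. Its log2 fold change was -0.37 ± 0.06 (SE), with an adjusted p of 0.0509 (limma). The log2 fold change was -0.26 for Smg1, the kinase of UPF1, and 0.09 and 0.03 for the exonuclease genes Eri1 and Xrn1. Among 19 histone chaperone genes, 13 lay above 0 and the median was 0.05. CTX and PBS values did not overlap in 6 of them with CTX higher (15.0% of all tested genes) and in 1 with CTX lower (14.1%). Chaf1b, a subunit of the replication-coupled assembly factor, and Hat1, which acetylates new H4, had log2 fold changes of 0.53 and 0.37, with adjusted p = 0.133 for both (limma), and Asf1b and Tonsl had -0.16 and -0.09.

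The replacement and other histone genes, whose mRNAs mostly carry a poly(A) tail, had 5 of 12 above 0 and a median log2 fold change of -0.04. None was called, but this median covers shifts in both directions. CTX and PBS values did not overlap in 5 genes with CTX higher (15.0% of all tested genes) and in 3 with CTX lower (14.1%). Among them were the abundant H3f3b and H3f3a, with log2 fold changes of 0.24 and 0.17, and H2afz, with -0.33 (limma adjusted p = 0.193, 0.244 and 0.155). H2afj was at 23.3 ± 1.1 FPKM in PBS and 37.4 ± 3.4 FPKM in CTX samples (SD, n = 3), and its adjusted p of 0.0203 (limma) passed while its log2 fold change of 0.68 was under 2-fold. H2afx, the H2A variant that is phosphorylated at DNA breaks and whose transcript also held the stem-loop letters, was at 99.7, 98.6 and 114.1 FPKM with PBS and 79.2, 59.7 and 79.0 FPKM with CTX. These did not overlap, and the log2 fold change of -0.53 ± 0.13 (SE) did not pass (limma, adjusted p = 0.121). The same held for Cenpa, the H3 variant of centromeres, with 17.6 ± 0.8 and 10.3 ± 2.7 FPKM (SD, n = 3; log2 fold change -0.79, adjusted p = 0.118), and H2afy2, which encodes a macroH2A, had a log2 fold change of 0.38. As a view of other RNAs that lack an ordinary poly(A) tail, 15 were examined, of which 6 were listed at 0 in all samples and 7 were tested, and none was called. Rn7sk, the 7SK RNA that holds the elongation factor P-TEFb, was at 7.80, 10.4 and 7.65 FPKM with PBS and 10.2, 49.6 and 55.0 FPKM with CTX. It was high in CTX replicates 2 and 3 and within the PBS range in replicate 1 (log2 fold change 1.82 ± 0.63, SE, limma adjusted p = 0.203). Rnu12, Neat1 and Rny1 had log2 fold changes of 0.90, -0.50 and -0.26.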

How the data were processed

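RNA-seq was performed by the authors on 3 PBS and 3 CTX samples, and groups were taken from the sample labels. The submitters' processing notes name CASAVA 1.8, fastp, HISAT2 2.0.5, featureCounts 1.5.0-p3, DESeq2 1.20.0 and build mm10, without their roles. The RNA was prepared with an NEBNext Ultra kit. Poly(A) selection, strandedness and the treatment of reads mapping to several genes are not given in the sources used here.

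The authors deposited FPKM values per gene, with gene lengths. Multiplied by gene length, 100% of values were whole multiples of 1 read (tolerance 0.01), so reads were rebuilt. The authors' mean signal per group, also deposited, equalled 0.99349 times the mean of the rebuilt reads, scaled for depth, for every gene above 10. The log2 fold changes and p-values that the authors deposited are their own comparison and were not used. No per-sample column was left unused.

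FPKM values were tested as log2(FPKM + 0.1) with limma 3.58.1 (lmFit, eBayes with trend, Benjamini-Hochberg) in R 4.3.3, for genes with a mean of at least 0.5 FPKM, and the method was tested on simulated data. Ratios of reads were given exact binomial intervals. Sequences were read from GENCODE M21 transcripts and RefSeq promoters with pandas 2.3.3 in Python 3.11.15, beside SciPy 1.17.1, NumPy 2.4.6 and, for figures, matplotlib 3.10.9. Named genes were those called, the 5 highest levels, the highest of each class, the 5 highest and 5 lowest fold changes, the Hist3 and Hist4 genes, testis genes, models over 2000 bases and, per comparison list, the 2 highest and 2 lowest fold changes with Slbp, Npat and H2afx. Zcchc6 and Zcchc11 of the decay list had no row under those symbols, and other genes were named after their values were seen. The histone genes and all lists were chosen with earlier results of these data known. Each sample pools 3 mice, and p-values measure the spread between such pools.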

Additional observations from a re-analysis of the deposited data

How the results depend on the processing

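With 3 pools per group and few reads per gene, depth limited what could be seen: 48 of the 67 genes had 10 or fewer reads in every sample. The number of histone genes called higher, 1, was 0 with a pseudocount of 1, no minimum, a mean FPKM of at least 5, scaling to library totals, the 75th percentile or quantiles, voom, and voom with no minimum (chosen after seeing the data), 3 with sample weights (arrayWeights) and 2 among protein-coding genes only or with unadjusted p-values. It was 0 to 2 when a sample was left out, 2 without CTX replicate 1 and 0 without any other sample. The number called lower, 0, was 1 with arrayWeights, Hist1h4k. Same-numbered samples did not clearly deviate together (correlations 0.0556, 0.0242 and 0.00581, against -0.0756 to 0.0593 for different numbers). No pairing by replicate number was seen, though with 3 samples per group this check cannot exclude one. With the replicate block 0 histone genes were called higher and the adjusted p of Hist1h3a was 0.185. Genes with all CTX samples higher numbered 5 with no minimum, 0 at a mean FPKM of at least 5 and 2 to 4 with a sample left out, against 2. Genes with all CTX samples lower numbered 1 with no minimum, 2 with library totals, 1 with the 75th percentile and 1 to 3 with a sample left out, against 0. The median log2 fold change was -0.38 at a mean FPKM of at least 5, where only Hist1h1c was left. It was also -0.38 over the 3 tested genes with under 25% of shared windows (chosen after seeing the data). That value was again the one of Hist1h1c, between Hist2h2be at -0.46 and Hist1h1b at 1.31. With a sample left out the median was -0.21 to 0.08. The log2 ratio of summed levels stayed between -0.26 and 0.13, within the spread between samples. The sign of genes that were not called turned under some settings: with arrayWeights to 0.19 for Hist1h4i, 0.014 for Hist1h2bj and -0.25 for Hist1h2bg, and for Hist2h2ac to 0.88 with a pseudocount of 0.01, 0.14 with quantiles and 0.077 with voom. With a sample left out, log2 fold changes ranged from -0.77 to 0.12 for Hist1h1c, -0.30 to 0.41 for Hist1h2ao, -0.057 to 0.34 for Hist1h4h, -0.76 to 0.082 for Hist1h2bj, -0.13 to 0.46 for Hist1h4n, -0.40 to 0.029 for Hist3h2a, -1.16 to 0.74 for Hist2h2ac and -0.50 to 0.74 for Hist1h2bg. Other causes were not tested.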
